A study of Mus musculus with 35 samples.

Results

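The CLEAR mutation was compared on a tau background in single nuclei of the mouse hippocampus. Members of the comparison were the 4 nuclei libraries of CLEAR mutant mice crossed with PS19 (CLEAR_PS19) and the 3 nuclei libraries of PS19 mice, all taken at 9 months and chosen by their labels. They are 7 of the 35 samples of the study and hold 77627 of its 142840 nuclei with 500 or more detected genes. PS19 mice carry a mutant human tau transgene driven by the promoter of the mouse prion protein gene Prnp, so the transgene follows that promoter and not the mouse tau gene Mapt. CLEAR mutants, as far as the study is known, have a mutated CLEAR element in Atp6v1h, to which the transcription factor TFEB binds, in all of their cells. CLEAR_PS19 mice carry both, and PS19 mice here carry the transgene alone. All groups were labelled C57BL/6 and each held 1 female, which was replicate 3 of PS19 and replicate 4 of CLEAR_PS19, with males otherwise. WT (3 libraries) and CLEAR (4 libraries) nuclei of the same age gave the difference made by the mutation without tau. Bulk RNA-seq of whole hippocampus at 9 months (5 WT and 4 PS19) gave a second readout. Bulk samples of WT and PS19 at 4 months entered the same bulk fit and were not compared here. Sex is not given for the bulk samples, nor whether they came from other animals than the nuclei. The labels number the samples as replicates and name no litter or preparation day.

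V-ATPase is the proton pump that acidifies lysosomes. Its cytosolic V1 sector burns ATP, its membrane V0 sector carries the protons, and subunit H of V1, the product of Atp6v1h, couples ATP use to proton transport. TFEB is a master regulator of lysosomal genes and binds CLEAR elements in their promoters. In tau disease, microglia take on a disease-associated state and glia and neurons express interferon-stimulated genes, many of which share a promoter element bound by interferon-activated transcription factors.

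Libraries held 8980 to 11114 nuclei and 58.9 to 90.3 M UMIs (unique molecular identifiers, 1 per captured RNA molecule, with M for mega) in PS19, and 8592 to 16070 nuclei and 44.9 to 95.9 M UMIs in CLEAR_PS19. Median UMIs per nucleus were 3911 to 5235 and 3479 to 6432.5. Pairs of these libraries shared 17 to 58 cell barcodes, 0.198 to 0.541% of the smaller library. CLEAR_PS19 replicates 1 and 2 stood apart: their log expression correlated at r = 0.997 with each other across genes and at 0.965 to 0.981 with the other 5 libraries, while those 5 correlated at 0.969 to 0.992 among themselves. Both lay closer to CLEAR replicates 1 and 2 (0.988 to 0.990). Values without these 2 libraries stand beside the results. Cutting the correlations of all 14 nuclei libraries into 3 sets, which the labels do not name, put CLEAR_PS19 1 and 2 with CLEAR 1 and 2, PS19 1 and 2 with CLEAR_PS19 3, and PS19 3 and CLEAR_PS19 4 with the rest. Prnp, whose level checks the tau transgene, was at 103, 109 and 91.5 CPM (counts scaled to a library total of 1000000) in PS19 and 170, 178, 120 and 91.4 CPM in CLEAR_PS19, all above the 56.2 to 81.8 CPM of the 7 libraries without the transgene. Its difference between the tau groups was a log2 of 0.42 (SE 0.16, edgeR adjusted p 0.265), and 0.10 without CLEAR_PS19 1 and 2. Mapt was at 467, 481 and 435 CPM in PS19 and 379, 380, 457 and 433 CPM in CLEAR_PS19 (log2 -0.16, SE 0.09, edgeR adjusted p 0.426, and -0.06 without CLEAR_PS19 1 and 2).

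Atp6v1h (ENSMUSG00000033793, GRCm38 chr1:5070018-5162529, plus strand) fell in CLEAR_PS19 nuclei. It was at 117, 103 and 99.9 CPM in PS19 and at 55.9, 61.5, 61.6 and 56.5 CPM in CLEAR_PS19. Every CLEAR_PS19 library lay far below every PS19 library, and the spread within a group was small, at 107 ± 9.09 CPM (SD, n = 3) and 58.9 ± 3.12 CPM (SD, n = 4). The log2 difference was -0.87 (SE 0.07, edgeR quasi-likelihood test, adjusted p 0.000247), and -0.83 (SE 0.09, edgeR adjusted p 0.0307) without CLEAR_PS19 1 and 2. Atp6v1h was the single gene to pass an adjusted p of 0.05 among 22347 tested, 0.00447% of them, and also the single one of 22587 (0.00443%) without CLEAR_PS19 1 and 2. With the 7 libraries of this comparison fitted alone edgeR called no gene, and Atp6v1h kept its log2 of -0.87 at an adjusted p of 0.133; without replicates 1 and 2 of both CLEAR_PS19 and CLEAR it was at -0.82 (edgeR adjusted p 0.0504). At an unadjusted p under 0.05, 1823 genes (8.16%) were lower and 1579 (7.07%) higher, against 442 (1.96%) and 173 (0.766%) without those 2 libraries. DESeq2 called 288 genes, 211 lower and 77 higher, and 6 without them. As no gene besides Atp6v1h passed the edgeR test in all nuclei, the groups that follow are given by values and counts.

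The same reduction was present without tau. Atp6v1h was at 107 ± 9.06 CPM in WT (SD, n = 3) and 56.0 ± 1.66 CPM in CLEAR (SD, n = 4), a log2 difference of -0.94 (SE 0.07, edgeR adjusted p 8.9e-05). The difference between the 2 backgrounds was 0.08 (SE 0.10, edgeR adjusted p 0.907). Across all genes this interaction test of edgeR called 0 (0%), with 1882 genes (8.42%) at an unadjusted p under 0.05, and DESeq2 called 56. Without CLEAR_PS19 1 and 2 it called 0, with 1016 genes at that p. In bulk tissue Atp6v1h differed by -0.05 between PS19 and WT (edgeR adjusted p 0.669).

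**Figure D1:**
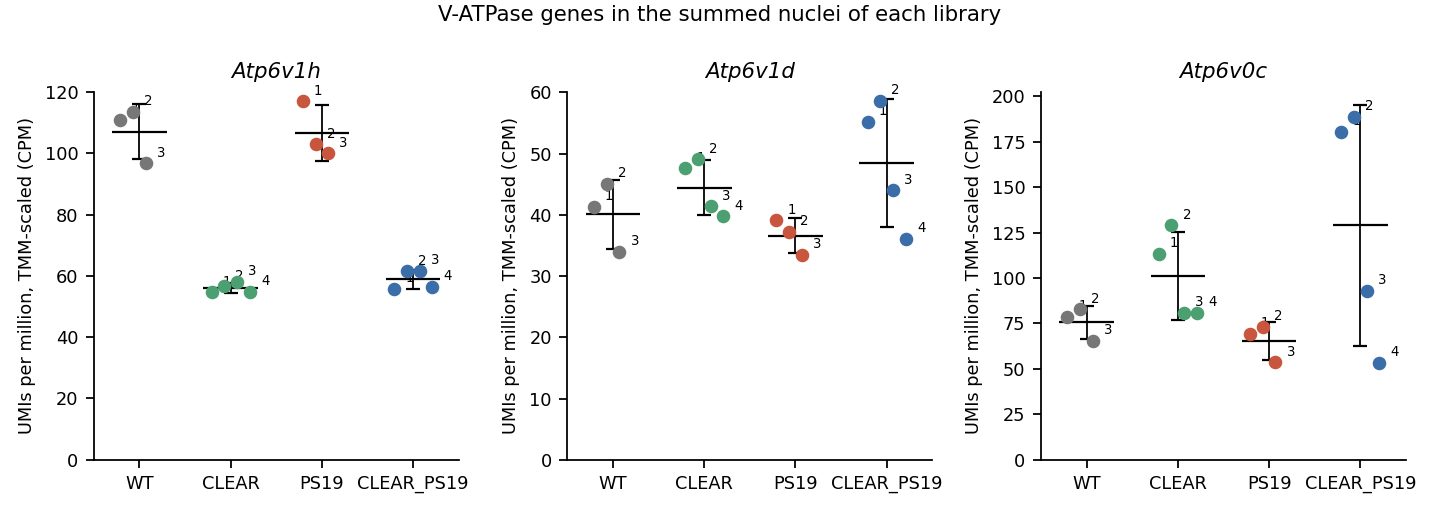
CPM of Atp6v1h, Atp6v1d and Atp6v0c in the 14 nuclei libraries by group. Points are libraries numbered by replicate, lines are means and bars are SD. Atp6v1h separates the groups with the mutation (55.9 to 61.6 CPM in CLEAR_PS19) from those without it, whereas the higher Atp6v1d and Atp6v0c values of CLEAR_PS19 belong mostly to replicates 1 and 2.

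The neighbours of Atp6v1h on chromosome 1 did not differ more often than all genes. Of the 30 tested genes among them, 10 before it and 20 after it, 0 passed the edgeR test and 0 that of DESeq2. At an unadjusted p under 0.05 there were 3 (10.0%), beside 15.2% of all genes with a position. Without CLEAR_PS19 1 and 2 there were 0, beside 2.66%. The median log2 difference of the neighbours was -0.05. Tcea1, which encodes a transcription elongation factor, was the single neighbour without overlap between the groups, at a log2 difference of 0.16. Over all genes, 675 (3.02%) had all 4 CLEAR_PS19 libraries below all 3 PS19 libraries and 689 (3.08%) had them above.

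The other subunits of the pump were not lower as a group. Of 11 tested V1 genes, 9 had a positive log2 difference and the list's median was 0.16, and 0.03 without CLEAR_PS19 1 and 2, beside 0.01 and -0.01 over all genes. Atp6v1d, a subunit of the rotor stalk, was at 39.1, 37.2 and 33.5 CPM in PS19 and 55.1, 58.7, 44.0 and 36.0 CPM in CLEAR_PS19, so the groups overlapped (log2 0.37, SE 0.11, edgeR adjusted p 0.224, and 0.17 without CLEAR_PS19 1 and 2). The V0 sector and its accessory proteins had a median of 0.19 over 13 genes (0.06 without those libraries), with 5 higher and 1 lower at an unadjusted p under 0.05, beside 7.07% and 8.16% of all genes. Without CLEAR_PS19 1 and 2, 0 were higher and 1 lower. Atp6v0c, the proton-carrying ring subunit, was at 69.4, 73.0 and 53.7 CPM in PS19 and 181, 189, 93.1 and 53.3 CPM in CLEAR_PS19. Replicates 1 and 2 stood highest and replicate 4 lay at the PS19 level (log2 0.86, SE 0.28, edgeR adjusted p 0.244, and 0.21 without 1 and 2). Atp6v0d2, a V0 subunit of macrophages and osteoclasts, was at 2.24, 4.59 and 0.23 CPM in PS19 and 0.11, 0.04, 1.00 and 0.02 CPM in CLEAR_PS19 (log2 -3.05, SE 0.79, edgeR adjusted p 0.203, and -1.89 without CLEAR_PS19 1 and 2). Replicate 3 was the high library of its group, and without it the value was -5.12. Vma21, an assembly chaperone of V0, was at 8.17, 8.55 and 7.41 CPM in PS19 and 11.9, 12.1, 9.59 and 8.85 CPM in CLEAR_PS19, without overlap (log2 0.37, SE 0.10, edgeR adjusted p 0.210, and 0.24 without 1 and 2).

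CLEAR elements were looked for in the other pump promoters, because the mutated site belongs to this motif. The core TCACGTG was searched on both strands from 250 bases before to 50 bases after the RefSeq start (GRCm38.p6). It lay in 1 of 7 V1 promoters, 3 of 10 V0 promoters, 9 of 37 promoters of lysosomal hydrolases and 5.86% of the promoters of all tested genes. The sites of a V1 and a V0 gene, with the core in capitals, read as follows.
Atp6v1a, chr16:44139365-44139411, minus strand: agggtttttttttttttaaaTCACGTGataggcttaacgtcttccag
Atp6v0d1, chr8:105566042-105566088, minus strand: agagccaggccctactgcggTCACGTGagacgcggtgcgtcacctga
A match of letters is a description and not a measured site.

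Lysosomal genes as groups stayed near the median of all genes. The 45 hydrolase genes had a median log2 difference of -0.01 (-0.12 without CLEAR_PS19 1 and 2), with 5 lower and 3 higher at an unadjusted p under 0.05, near the shares of all genes (8.16% and 7.07%), and 0 in either direction without those libraries. Ctsc, cathepsin C, was at 17.04, 27.6 and 8.23 CPM in PS19 and 7.11, 8.07, 12.6 and 6.53 CPM in CLEAR_PS19 (log2 -1.03, SE 0.30, edgeR adjusted p 0.216). The value was -0.79 without CLEAR_PS19 1 and 2 and -0.60 without PS19 2. Gaa, the enzyme that breaks down lysosomal glycogen, had a log2 difference of 0.29 (edgeR adjusted p 0.262, and 0.13 without 1 and 2). The 24 lysosomal membrane genes had a median of 0.02 (-0.05 without 1 and 2), and none reached an unadjusted p of 0.05. Factors of the TFEB family and nutrient sensing (24 genes) had a median of 0.02, and 34 autophagy genes one of 0.04, with 0.001 and 0.005 without those libraries. Mitf, a relative of TFEB, was at 136, 157 and 109 CPM in PS19 and 80.7, 81.5, 116 and 96.9 CPM in CLEAR_PS19 (log2 -0.51, SE 0.17, edgeR adjusted p 0.245, and -0.34 without 1 and 2).

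Interferon-stimulated genes were lower in CLEAR_PS19 as a group, with no member passing the edgeR test. All 27 tested genes of the 28 in the list had a negative log2 difference, with a median of -1.28, and of -1.05 without CLEAR_PS19 1 and 2. At an unadjusted p under 0.05, 25 of 27 were lower (20 without those 2 libraries), beside 8.16% of all genes (1.96%), and 14 had every CLEAR_PS19 library below every PS19 library, beside 3.02% of all genes. DESeq2 called 16 of the 27 lower, and 0.944% of all genes. Without CLEAR_PS19 1 and 2 it called fewer genes in all than these 16, and its calls in this list are not given here. PS19 replicate 2 stood highest, and without it the median was -0.63 with 15 of 27 lower at an unadjusted p under 0.05, beside 3.82% of all genes. Without PS19 2 and CLEAR_PS19 1 and 2 together it was -0.48, with 7 of 27 beside 1.19%, and with the library set as a block in place of sex -0.94, with 22 of 27 beside 3.36%. With granule neuron markers as a covariate the median was -0.79. Between CLEAR and WT, without tau, the list's median was -0.03. The median interaction was -1.07, with 15 of 27 genes at an unadjusted p under 0.05, beside 8.42% of all genes, and none passing the adjusted edgeR test. Without CLEAR_PS19 1 and 2 that share of all genes was 4.50%, and the list's interaction is not given here. A negative interaction was not particular to this list. Its median was -1.18 for class I antigen presentation (9 of 15 at that p), -1.80 for border macrophage markers (7 of 8) and -1.59 for endothelial markers (4 of 8). Between CLEAR and WT the medians of these lists were 0.17, 0.52 and 0.28, differences that enter the interaction. Synaptic genes (0.26) and granule neuron markers (0.47) had positive median interactions. None of these list interactions is given without CLEAR_PS19 1 and 2.

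The largest difference of the list was in Cxcl10 (chr5:92346638-92348889), a chemokine that draws T cells. It was at 0.98, 2.25 and 1.55 CPM in PS19 and 0.40, 0.10, 0.19 and 0.18 CPM in CLEAR_PS19, without overlap (log2 -2.77, SE 0.48, edgeR adjusted p 0.142). Oasl2 (chr5:114896936-114912234), a relative of the antiviral oligoadenylate synthetases, was at 5.15, 19.75 and 4.67 CPM in PS19 and 0.87, 1.07, 2.74 and 1.26 CPM in CLEAR_PS19 (log2 -2.72, SE 0.56, edgeR adjusted p 0.185). PS19 replicate 2 was far above the other PS19 libraries in Oasl2, and the groups did not overlap. Rsad2, the antiviral protein viperin, was at 0.91, 2.97 and 0.92 CPM in PS19 and 0.28, 0.31, 0.54 and 0.32 CPM in CLEAR_PS19 (log2 -2.14, edgeR adjusted p 0.185). Oas2, an oligoadenylate synthetase, was at 1.76, 4.09 and 2.15 CPM and 0.99, 0.81, 0.83 and 0.97 CPM (log2 -1.57, SE 0.31, edgeR adjusted p 0.184). Without CLEAR_PS19 1 and 2 the log2 differences of Cxcl10, Oasl2, Rsad2 and Oas2 were -3.17, -2.21, -1.79 and -1.55, and without PS19 2 they were -2.20, -1.68, -1.30 and -1.10. The smallest differences of the list were in Cmpk2 (-0.19), Stat2 (-0.24) and Irf9 (-0.32); the last 2 encode subunits of the interferon-activated factor. Ifit3 and Ifit3b, and members of the Trim30 and Sp100 families, have near-identical copies, so their counts are uncertain.

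Summed over the list, interferon transcripts made up 198, 386 and 157 CPM in PS19 and 123, 122, 143 and 117 in CLEAR_PS19. All CLEAR_PS19 libraries lay below all PS19 libraries and above the 3 WT libraries, which were at 88.6, 80.04 and 103. By sex, PS19 was at 198 and 386 against 123, 122 and 143 of CLEAR_PS19 in males, and at 157 against 117 in females. As the groups did not overlap, the same order within each sex had to follow and is no further test. The female values rest on a single library per group. In bulk hippocampus, where 1239 of 16133 genes (7.68%) rose in PS19 against WT by edgeR, 24 of these 27 genes rose, with a median log2 difference of 1.59.

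**Figure D2:**
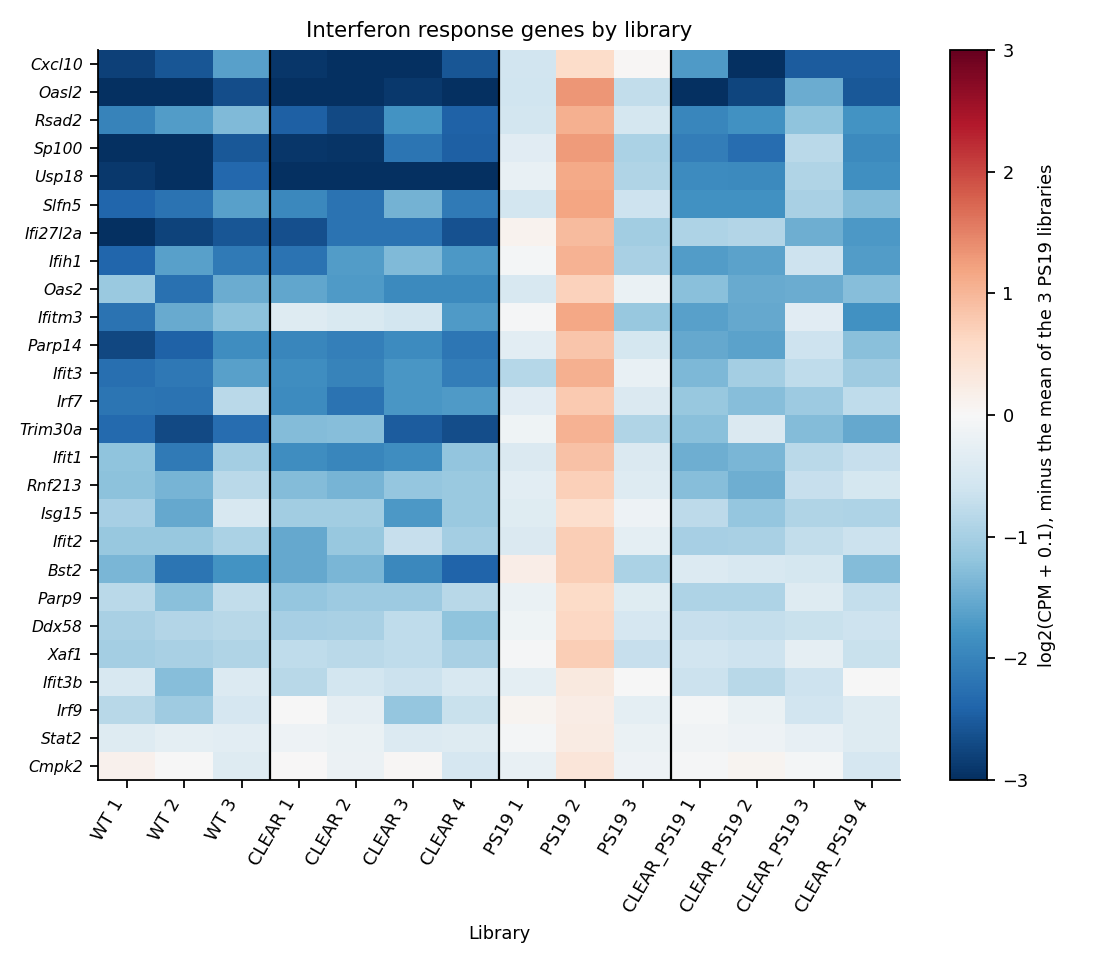
Heat map of 26 of the 27 tested interferon-stimulated genes in the 14 nuclei libraries, as log2(CPM + 0.1) minus the PS19 mean of the gene, with colours limited to 3 in either direction. PS19 replicate 2 is the strongest column, and the CLEAR_PS19 columns are lower than the PS19 columns for 14 of the 26 genes without overlap.

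The element of this pathway was common in the promoters of the list. The core GAAANNGAAA was found on either strand in 13 of the 21 interferon-stimulated genes with a RefSeq promoter (61.9%), against 3.69% of 15371 promoters of tested genes, and in 3 of 13 genes of MHC class I presentation. The CLEAR core was in 0 of the 21. These 4 windows carry the shared motif in genes with large and moderate differences. The first match is in capitals, in either orientation, and Isg15 and Ifit1 were chosen after their values were seen.
Cxcl10, chr5:92349073-92349122, minus strand: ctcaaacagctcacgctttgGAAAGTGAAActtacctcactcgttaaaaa
Rsad2, chr12:26456543-26456592, minus strand: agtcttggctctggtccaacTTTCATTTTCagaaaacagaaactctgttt
Isg15, chr4:156200867-156200916, minus strand: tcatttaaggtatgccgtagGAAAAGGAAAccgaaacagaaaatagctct
Ifit1, chr19:34640765-34640814, plus strand: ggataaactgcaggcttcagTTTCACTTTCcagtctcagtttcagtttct
Isg15, a ubiquitin-like modifier, had a log2 difference of -1.03 and Ifit1, an RNA-binding antiviral protein, one of -1.24.

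Antigen presentation genes were mostly lower. In the class I list, 14 of 15 genes had a negative difference and 11 an unadjusted p under 0.05 (7 without CLEAR_PS19 1 and 2), beside 8.16% and 1.96% of all genes, with medians of -0.94 and -0.88. Without PS19 2 the median was -0.61 and 5 genes were below that p, beside 3.82% of all genes. Without PS19 2 and CLEAR_PS19 1 and 2 together it was -0.56 with 4, beside 1.19%. DESeq2 called 5 lower with all libraries, beside 0.944%, and its calls in this list without CLEAR_PS19 1 and 2 are not given here. Class I UMIs per UMI of microglia markers overlapped between the groups, at 0.209, 0.219 and 0.117 in PS19 and 0.154, 0.166, 0.148 and 0.083 in CLEAR_PS19 (exact permutation p 0.343). For the 14 class I genes also tested in nuclei rich in microglia markers (described below), the median was -0.88 over all nuclei and -0.41 in those. H2-K1, a class I heavy chain, was at 11.3, 14.003 and 7.15 CPM in PS19 and 6.20, 6.07, 7.88 and 3.33 CPM in CLEAR_PS19, where replicate 3 overlapped the female PS19 library (log2 -0.94, SE 0.17, edgeR adjusted p 0.150, and -0.87 without 1 and 2). Tap1, a subunit of the peptide transporter, was at 2.02, 3.35 and 1.37 CPM and 1.04, 0.907, 1.48 and 0.804 CPM (log2 -1.09, edgeR adjusted p 0.187, and -0.88 without 1 and 2). H2-Q6 and H2-Q7 are near copies, so reads can be split between them. The class II list of 7 genes had a median of -1.76 (-1.29 without CLEAR_PS19 1 and 2), with 4 genes lower at an unadjusted p under 0.05, beside 8.16% of all genes, and none without those 2 libraries, without PS19 2 (median -1.18) or with the library set as a block (-1.10). Cd74, the invariant chain, was at 5.62, 11.9 and 0.53 CPM in PS19 and 0.97, 0.97, 1.18 and 0.74 CPM in CLEAR_PS19. The PS19 female lay below all 4 CLEAR_PS19 libraries, so this difference belongs to PS19 replicates 1 and 2 (log2 -2.49, SE 0.77, edgeR adjusted p 0.238, -2.25 without CLEAR_PS19 1 and 2 and -1.63 without PS19 2).

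Disease-associated microglia genes mostly had negative differences, while their summed level overlapped between the groups. Of 29 tested genes, 25 had a negative difference, with a median of -0.61, and of -0.49 without CLEAR_PS19 1 and 2. At an unadjusted p under 0.05, 15 were lower (8 without those libraries), beside 8.16% of all genes (1.96%), and 1 was without overlap, near the 3.02% of all genes. Without PS19 2 the median was -0.31 with 7 genes lower at that p, beside 3.82% of all genes, and with the library set as a block it was -0.35 with 11, beside 3.36%. Without PS19 2 and CLEAR_PS19 1 and 2 together it was -0.20 with 3, beside 1.19%. The list summed to 1978, 2613 and 1725 CPM in PS19 and 2143, 2152, 1962 and 1624 CPM in CLEAR_PS19, a ratio of means of 0.936 (exact permutation p 0.743), and of 0.852 without CLEAR_PS19 1 and 2. Itgax, the integrin CD11c, was at 4.26, 7.63 and 1.03 CPM in PS19 and 0.43, 0.43, 1.90 and 0.37 CPM in CLEAR_PS19 (log2 -2.42, SE 0.51, edgeR adjusted p 0.185, and -1.63 without 1 and 2). Spp1, osteopontin, was at 7.45, 14.3 and 0.93 CPM and 1.26, 1.34, 3.36 and 0.37 CPM (log2 -2.19, edgeR adjusted p 0.200, and -1.71 without 1 and 2). In both genes the PS19 female was low and CLEAR_PS19 replicate 3 was high. Cd52, a small surface glycoprotein, was the member without overlap, at 5.28, 8.19 and 3.42 CPM and 2.85, 2.89, 2.72 and 2.25 CPM (log2 -1.07, SE 0.25, edgeR adjusted p 0.203, -1.15 without CLEAR_PS19 1 and 2 and -0.70 without PS19 2). Between CLEAR and WT the list's median was 0.35.

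Homeostatic microglia genes had a median of -0.14 over 17 genes with and without CLEAR_PS19 1 and 2, and of -0.06 without PS19 2. Cx3cr1, the fractalkine receptor, was at 43.5, 56.3 and 44.3 CPM in PS19 and 38.0, 33.2, 38.0 and 40.2 CPM in CLEAR_PS19, without overlap (log2 -0.36, SE 0.13, edgeR adjusted p 0.262, -0.33 without CLEAR_PS19 1 and 2 and -0.18 without PS19 2). Tmem119, a marker of resting microglia, pointed the other way, at 1.15, 1.96 and 2.77 CPM and 5.09, 4.03, 1.75 and 3.08 CPM (log2 0.91, edgeR adjusted p 0.275, and 0.22 without 1 and 2). All 10 tested complement genes had a negative difference, with a median of -0.60 (-0.57 without CLEAR_PS19 1 and 2), and none passed the edgeR test. At an unadjusted p under 0.05, 6 were lower (2 without those libraries), beside 8.16% of all genes (1.96%). Without PS19 2 the median was -0.30, with 9 of 10 negative and 3 lower at that p, beside 3.82%, and with the library set as a block it was -0.40 with 2, beside 3.36%. Without PS19 2 and CLEAR_PS19 1 and 2 together it was -0.28 with 0, beside 1.19%. The list summed to 184, 266 and 124 CPM in PS19 and 134, 122, 154 and 76.3 CPM in CLEAR_PS19, so the groups overlapped (exact permutation p 0.171). C4b, a complement component made by glia in disease that has the near copy C4a, was at 54.4, 56.4 and 32.7 CPM in PS19 and 16.5, 14.4, 34.2 and 15.3 CPM in CLEAR_PS19 (log2 -1.25, SE 0.35, edgeR adjusted p 0.210, and -0.93 without 1 and 2). CLEAR_PS19 replicate 3 was at the level of the PS19 female, and WT averaged 3.73 CPM. General astrocyte markers, 10 of 10 detected, summed to 553, 601 and 663 CPM in PS19 and 433, 454, 561 and 581 CPM in CLEAR_PS19, with a median log2 difference of -0.42, and of -0.11 without CLEAR_PS19 1 and 2. The reactive astrocyte list (14 genes) shared its lowest value, -2.77, with the interferon list, where it was that of Cxcl10. Its genes had a median of -0.62, of -0.28 without CLEAR_PS19 1 and 2, of -0.30 without PS19 2 and of -0.08 without all 3. At an unadjusted p under 0.05, 5, 1, 2 and 1 of these genes were lower, beside 8.16, 1.96, 3.82 and 1.19% of all genes. Among them Cp, the copper-carrying ferroxidase ceruloplasmin, was at 21.3, 21.96 and 22.7 CPM and 12.4, 12.3, 17.1 and 20.4 CPM (log2 -0.49, SE 0.14, edgeR adjusted p 0.210, and -0.26 without 1 and 2).

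**Figure D3:**
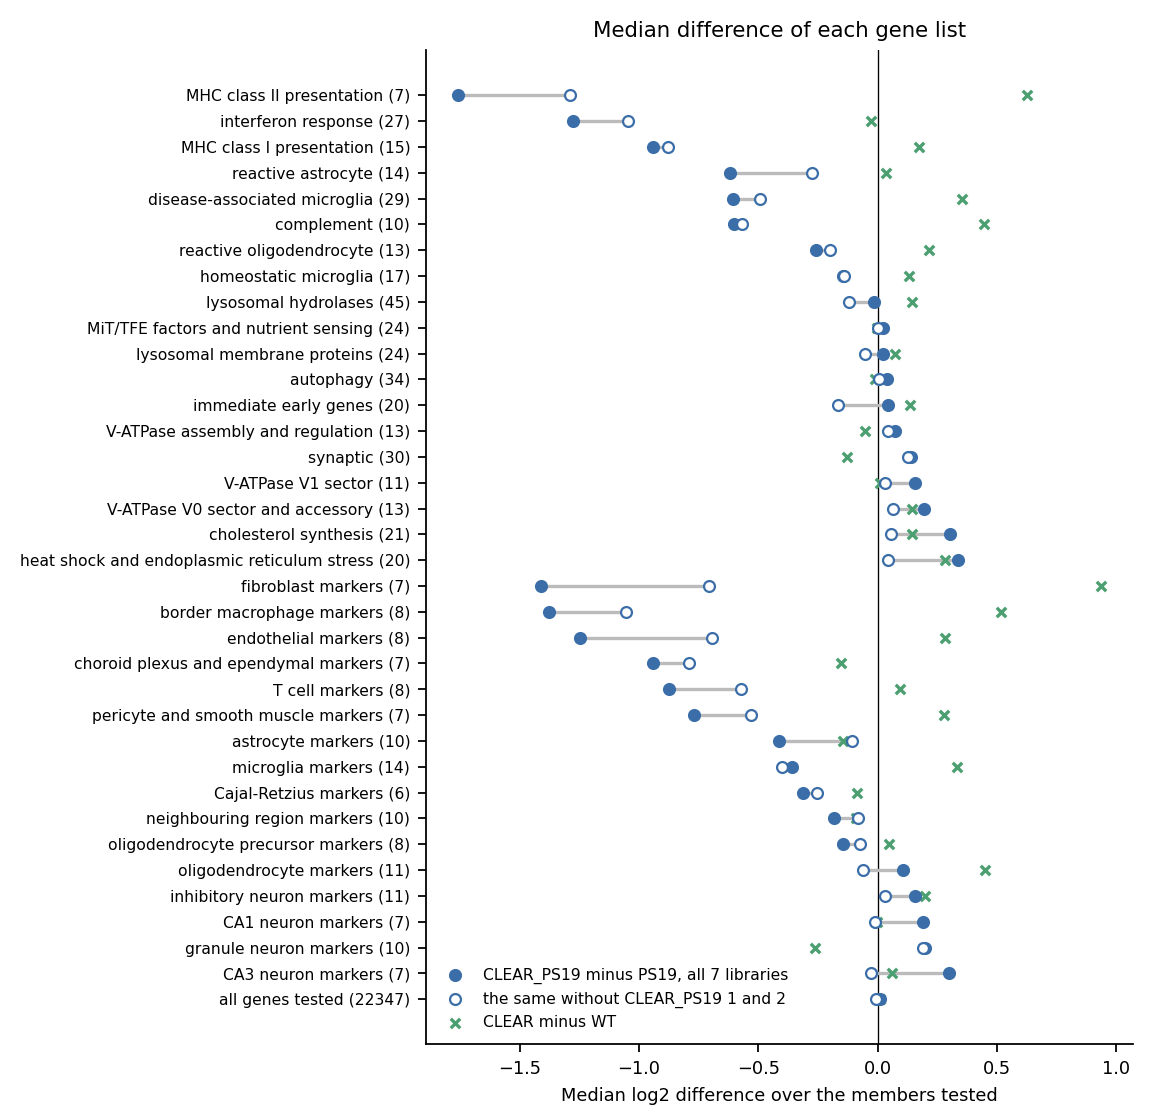
Median log2 difference of each pathway and marker list for CLEAR_PS19 minus PS19 with all libraries and without CLEAR_PS19 1 and 2, and for CLEAR minus WT. The interferon list lies at -1.28 and -1.05 on the tau background and at -0.03 without tau, and the heat shock list moves from 0.34 to 0.04 when the 2 libraries are left out.

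Markers of several other cell types were lower in the same libraries. In bulk tissue and in sums over all nuclei, fewer cells of a type and less RNA per cell cannot be told apart. Microglia markers (14 of 14 detected) summed to 495, 727 and 476 CPM in PS19 and 436, 392, 478 and 393 in CLEAR_PS19, which overlap (exact two-sided permutation test, p 0.114). Border macrophage markers (8 of 8) summed to 23.9, 52.2 and 27.0 against 15.7, 12.2, 20.4 and 22.8, and T cell markers (10 of 10) to 23.4, 29.9 and 25.7 against 16.7, 16.3, 22.5 and 22.6. Both separated the groups, as did Cajal-Retzius markers (120, 145 and 116 against 74.3, 77.4, 107 and 93.9), at the smallest exact permutation p that 3 and 4 libraries allow, 0.0571. Adjusted over the 17 marker lists, that p became 0.291. Endothelial markers (8 of 8) summed to 30.3, 69.6 and 29.7 against 13.9, 10.6, 31.0 and 17.9 (exact permutation p 0.171), with a median log2 difference of -1.25, of -0.69 without CLEAR_PS19 1 and 2 and of -0.70 without PS19 2. Median log2 differences with and without CLEAR_PS19 1 and 2 were -0.36 and -0.40 for microglia, -1.38 and -1.05 for border macrophage, -0.87 and -0.57 for T cell and -0.31 and -0.25 for Cajal-Retzius markers. Markers of fibroblasts (-1.41 and -0.70), of pericytes and smooth muscle (-0.77 and -0.53) and of choroid plexus and ependyma (-0.94 and -0.79) had negative medians too, with 3, 4 and 2 of 7 genes each lower at an unadjusted p under 0.05, beside 8.16% of all genes, and 0, 1 and 0 without CLEAR_PS19 1 and 2. Their summed levels overlapped between the groups (exact permutation p 0.914, 0.171 and 0.343). Without PS19 2 the medians of microglia, border macrophage, T cell, pericyte and fibroblast markers were -0.05, -0.55, -0.44, -0.42 and -0.49. With PS19 2 and CLEAR_PS19 1 and 2 all left out, the same medians were -0.15, -0.45, -0.07, -0.20 and 0.09. The endothelial median was then -0.18 and the Cajal-Retzius median -0.17. The choroid plexus and ependymal median was -0.59 without PS19 1 and -1.55 without PS19 3. Mrc1, the mannose receptor of border macrophages, was at 4.01, 12.2 and 3.77 CPM and 2.18, 1.60, 3.41 and 1.17 CPM (log2 -1.68, edgeR adjusted p 0.203, -1.46 without CLEAR_PS19 1 and 2 and -0.94 without PS19 2). Flt1, a VEGF receptor of endothelium, was at 9.39, 21.3 and 7.06 CPM and 2.06, 1.5003, 7.35 and 3.17 CPM (log2 -1.84, edgeR adjusted p 0.220, and -1.19 without 1 and 2). PS19 replicate 2, the library highest in interferon genes, was also the highest in microglia, border macrophage, T cell and endothelial markers. No marker of these lists was at 0. Per UMI of microglia markers, interferon UMIs were at 0.400, 0.531 and 0.330 in PS19 and 0.282, 0.310, 0.299 and 0.298 in CLEAR_PS19, so the groups stayed apart, with a log2 difference of -0.47 in place of -0.86 (-0.47 also without CLEAR_PS19 1 and 2). Without PS19 2 these 2 differences were -0.29 and -0.49. In WT the ratio was 0.368, 0.376 and 0.324, above every CLEAR_PS19 library, and PS19 3 lay within the WT range. Over barcodes with 1000 or more genes the groups overlapped, at 0.398, 0.526 and 0.338 and at 0.303, 0.352, 0.299 and 0.344, a log2 difference of -0.35. The part of other cell types in the lower immune genes was not tested beyond these values.

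To look within microglial nuclei, barcodes with 3 or more of the 14 microglia markers detected and at least 2 marker UMIs per 1000 were summed apart, a rule chosen after the data were seen. These marker-rich nuclei were 11.1, 16.3 and 9.51% of PS19 nuclei and 7.70, 6.42, 11.1 and 7.54% of CLEAR_PS19 nuclei (exact permutation p 0.171). They still held transcripts of neurons, at 378 to 569 CPM of 4 neuron genes in PS19 and 518 to 1079 CPM in CLEAR_PS19, and doublets were not removed. They held 60.7, 75.9 and 55.7% of all microglia marker UMIs in PS19 and 59.7, 55.5, 68.5 and 48.9% in CLEAR_PS19, so the other nuclei still held microglial transcripts. Atp6v1h was at 121, 126 and 110 CPM in them in PS19 and 60.2, 64.3, 85.6 and 77.1 CPM in CLEAR_PS19, without overlap (log2 -0.73, SE 0.14, edgeR adjusted p 0.0821). In the other nuclei it fell by 0.89 on the log2 scale (edgeR adjusted p 0.000139), the single call of 22158 genes (0.00451%).

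Interferon genes had negative medians in both sets of nuclei, the second of which was not free of microglial RNA. In marker-rich nuclei the list's median was -1.04 over 21 tested genes (-0.97 without CLEAR_PS19 1 and 2), and 14 were without overlap, beside 3.48% of all genes. The summed level was 1461, 2413 and 1369 CPM in PS19 and 783, 691, 982 and 939 in CLEAR_PS19, with WT at 526, 457 and 765. In the other nuclei it was 145, 229 and 117 against 106, 108, 109 and 97.6, with a median of -0.91 over 27 genes and 11 without overlap, beside 2.82% of all genes. Oasl2 in marker-rich nuclei was at 48.6, 147 and 54.9 CPM in PS19 and 16.4, 13.6, 27.4 and 26.7 CPM in CLEAR_PS19 (edgeR adjusted p 0.0883).

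The disease-associated list had a median of -0.64 in marker-rich nuclei (-0.40 without CLEAR_PS19 1 and 2), with 16 of 29 genes lower at an unadjusted p under 0.05, beside 7.18% of all genes tested there. Its summed level overlapped in both sets of nuclei, with ratios of means of 0.742 in marker-rich (exact permutation p 0.286) and 1.04 in the other nuclei (exact permutation p 0.629), the latter 0.933 without CLEAR_PS19 1 and 2. Of the 17 homeostatic genes, 5 are among the markers that chose these nuclei and were left out. The other 12 had a median of 0.52 in marker-rich nuclei (0.32), with 7 higher at that p beside 8.5% of all genes, whereas over all nuclei the same 12 had a median of -0.13 (-0.14). Complement genes, of which 4 are such markers, summed to 2186, 2097 and 2105 CPM and 3713, 3611, 2302 and 1925 CPM in marker-rich nuclei, a ratio of means of 1.36 (exact permutation p 0.343) and of 0.993 without CLEAR_PS19 1 and 2. As this sum holds the 4 markers that helped choose the nuclei, it cannot show a change in complement genes. The 5 tested complement genes outside that rule had a median of -0.81 over all nuclei and of -0.15 (-0.12 without CLEAR_PS19 1 and 2) in marker-rich nuclei. The synaptic list had a median of 0.59 (0.31) in the same nuclei, so neuronal transcripts were also higher in them. Summed disease-associated UMIs per UMI of microglia markers were 3.998, 3.60 and 3.63 in PS19 and 4.91, 5.48, 4.11 and 4.13 in CLEAR_PS19 over all nuclei, higher by a log2 of 0.31 (exact permutation p 0.0571) and of 0.14 without CLEAR_PS19 1 and 2, although the list's median was negative. WT was at 6.59, 7.42 and 5.41, above every PS19 library, so over all nuclei a higher ratio did not go with tau. In marker-rich nuclei alone the same ratio was 1.23, 1.34 and 0.669 against 0.643, 0.682, 0.928 and 0.475, a log2 of -0.64 with and without CLEAR_PS19 1 and 2 (exact permutation p 0.171 with them). There WT was at 0.386, 0.302 and 0.357, below every PS19 library. edgeR called 1 gene lower in marker-rich nuclei of 12390 tested (0.00807%), Gm20663, and 0 higher (0%), with 889 lower and 1053 higher at an unadjusted p under 0.05. Without CLEAR_PS19 1 and 2 it called 0 of 12401 (0%), with 474 at that p.

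**Figure D4:**
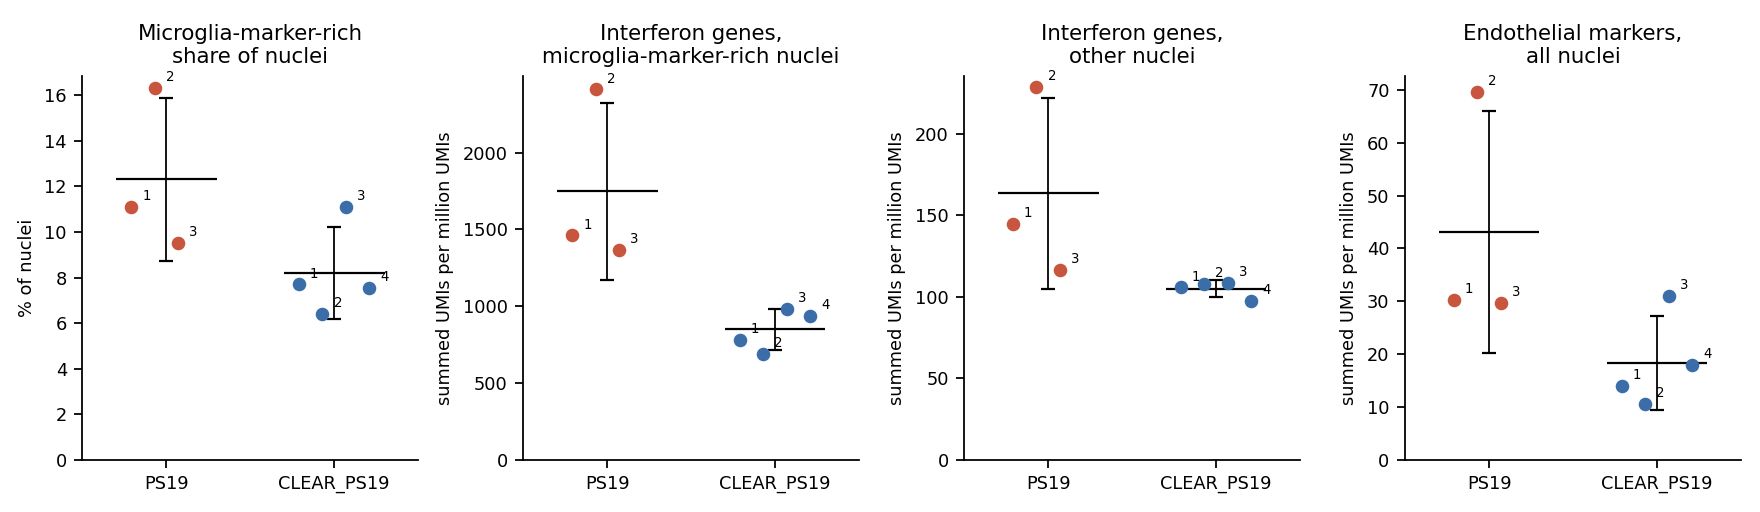
Per library, the percentage of nuclei rich in microglia markers, the summed interferon level (CPM) in those nuclei and in the other nuclei, and the summed endothelial markers in all nuclei. The interferon level separates PS19 (1369 to 2413 in marker-rich nuclei) from CLEAR_PS19 (691 to 982), while the percentages overlap.

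Heat shock and cholesterol genes were higher mostly in CLEAR_PS19 replicates 1 and 2. Heat shock and endoplasmic reticulum genes had a median of 0.34 over 20 genes, with 10 higher at an unadjusted p under 0.05, beside 7.07% of all genes, and of 0.04 with none without those libraries. With the library set as a block it was 0.15, with 2 beside 2.1% of all genes. Hspa5, the chaperone BiP, was at 21.5, 29.7 and 32.3 CPM in PS19 and 66.2, 69.6, 31.3 and 32.3 CPM in CLEAR_PS19, where replicates 3 and 4 lay within the PS19 range (log2 0.82, edgeR adjusted p 0.244, and 0.19 without 1 and 2). Cholesterol synthesis genes had a median of 0.30 over 21 genes (0.06 without 1 and 2), and 4 had all CLEAR_PS19 libraries above all PS19 libraries, beside 3.08% of all genes. Fdps, the farnesyl diphosphate synthase, was at 6.82, 7.08 and 6.90 CPM and 16.6, 16.5, 8.59 and 8.60 CPM, without overlap (log2 0.80, SE 0.25, edgeR adjusted p 0.243, and 0.35 without 1 and 2). Synaptic genes had a median of 0.14 (0.13), with 7 of 30 higher at an unadjusted p under 0.05 (none without 1 and 2), beside 7.07% of all genes. Without PS19 2, and likewise with granule neuron markers as a covariate, the median was 0.05. Syp, synaptophysin, was at 60.8, 58.3 and 65.7 CPM and 84.6, 87.6, 70.9 and 68.9 CPM, without overlap (log2 0.34, edgeR adjusted p 0.216, and 0.18 without 1 and 2). The median of 20 immediate early genes was 0.04, and 0.26 without PS19 1. It turned negative without CLEAR_PS19 1 and 2 (-0.16) and without PS19 2 (-0.29). Among them the activity-dependent factor Npas4 was at 15.2, 9.92 and 14.7 CPM and 8.95, 8.34, 8.80 and 9.54 CPM, also without overlap (log2 -0.55, edgeR adjusted p 0.244, and -0.57 without 1 and 2).

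Of the 20 genes with the smallest p, 10 in each direction, 8 lie on chromosome 7, which holds 7.62% of the tested genes with a position, and 2 belong to a list above, Atp6v1h and Cxcl10. These counts were 7 and 2 of the 20 ranked without CLEAR_PS19 1 and 2. The groups did not overlap in 16 of the 20; Klrb1b, Gm20429, Crtac1 and Tspan18 did. Some of them follow. Gm20663 (chr7:105901568-106093337), a gene model, was at 3.30, 4.82 and 1.05 CPM in PS19 and 0.18, 0.24, 0.38 and 0.53 CPM in CLEAR_PS19 (log2 -3.19, SE 0.44, edgeR adjusted p 0.0787). In marker-rich nuclei it fell by 3.00 on the log2 scale (edgeR adjusted p 0.0151). Anapc15 (chr7:101863715-101901849), a subunit of the anaphase-promoting complex, was at 22.9, 30.5 and 15.2 CPM and 7.40, 7.30, 10.6 and 9.56 CPM, with WT at 6.48 ± 0.769 CPM (SD, n = 3; log2 -1.39, SE 0.20, edgeR adjusted p 0.0787). Gdpd5, a phosphodiesterase gene also on chromosome 7, was at 20.6, 21.9 and 22.4 CPM and 11.1, 9.26, 11.1 and 17.5 CPM (log2 -0.83, SE 0.14, edgeR adjusted p 0.142). Hyal5 (chromosome 6), a hyaluronidase gene, was at 0.85, 2.12 and 0.73 CPM and 0.07, 0.17, 0.18 and 0.16 CPM (log2 -3.12, edgeR adjusted p 0.0787), and Klrb1b, a receptor of natural killer cells, had a log2 difference of -2.79 (edgeR adjusted p 0.0947). These 5 log2 differences, without CLEAR_PS19 1 and 2, were -2.43, -1.12, -0.65, -2.92 and -2.38. On the higher side, Ccdc81 (chr7:89866148-89903629) was at 3.27, 2.70 and 4.30 CPM and 19.6, 18.5, 12.7 and 7.82 CPM (log2 2.23, SE 0.40, edgeR adjusted p 0.150, and 1.62 without 1 and 2). Lig4, the DNA ligase of non-homologous end joining, was at 1.56, 2.21 and 1.43 CPM and 10.7, 8.79, 10.7 and 4.23 CPM (log2 2.41, SE 0.51, edgeR adjusted p 0.185, and 2.12 without 1 and 2). Aqp11, a water channel, was at 6.50, 6.36 and 7.75 CPM and 13.6, 13.7, 10.97 and 8.94 CPM, and its neighbour Clns1a, a splicing assembly factor, at 27.3, 22.4 and 24.4 CPM and 38.3, 37.3, 33.6 and 28.6 CPM. The rest of the 20, given by name alone here, are Gm15133 and Gm32850 on chromosome 7 and Gm4841, Gm20429, Lypd1, Gm26644, Crtac1, Chrm4 and Tspan18 elsewhere.

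Position was therefore counted over all genes, after this was seen. On chromosome 7, 76 of 1701 tested genes had all CLEAR_PS19 libraries below all PS19 libraries and 94 had them above, 9.99% together, against 6.10% of the 22330 genes with a position and 7.59% on chromosome 12, the next highest. In 238 bins of 10 Mb, the highest shares were on chromosome 7, at 21.5% of 144 genes between 10 and 20 Mb, 20.7% of 87 between 90 and 100 Mb and 17.8% of 135 between 100 and 110 Mb. Bins on the X chromosome (16.7% of 30 genes, 10 to 20 Mb) and chromosome 12 (16.1% of 56, 20 to 30 Mb) came next. Between 80 and 120 Mb of chromosome 7, an interval drawn after the bins were seen whose outer bins held 9.62% and 11.5%, the share was 15.0% of 413 genes, with 32 lower and 30 higher, and 30.02% had an unadjusted p under 0.05 against 15.2% of all genes. Without CLEAR_PS19 1 and 2 the latter shares were 9.93% and 2.66%. For CLEAR against WT, without tau, they were 3.87% and 5.05%, so the interval did not stand above all genes there. Of the lists, 3 of 27 tested interferon genes and 5 of 29 disease-associated genes lie on chromosome 7, and 1 (Trim30a) and 0 of them inside this interval. Of the 45 hydrolases 3 lie inside it, Ctsc, Smpd1 and Tpp1. The part of this region in the other differences was not tested.

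**Figure D5:**
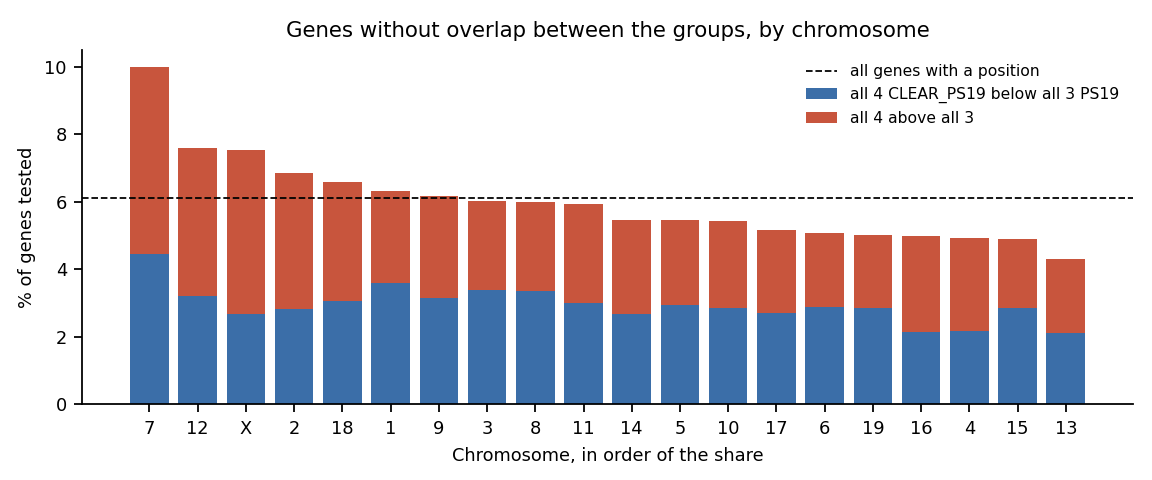
Percentage of tested genes per chromosome whose PS19 and CLEAR_PS19 libraries do not overlap, with the value over all genes (6.10%) as a dashed line. Chromosome 7 stands highest at 9.99%, and chromosome 13 lowest at 4.32%.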

How the data were processed

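Nuclei came from frozen hippocampus and were made into 10x single cell 3' v3 libraries, per the labels' protocols. UMI counts per gene and barcode were deposited by the authors, and the file headers give Cell Ranger 5.0.1; the submitters' processing notes name mm10 and Seurat. The barcode filter and the treatment of introns are not given in the sources used here. Bulk read counts were deposited per gene; the notes name STAR, cutadapt, featureCounts and DESeq2, and 1 of 21 tables states featureCounts 2.0.0 on exons without strand, so antisense genes cannot be told apart there.

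UMIs of barcodes with 500 or more detected genes were summed per gene and library, without removing doublets or clustering. All 14 nuclei libraries entered one fit of edgeR 4.0.16 (R 4.3.3; quasi-likelihood test, TMM, filterByExpr) with 4 groups and sex. Calls have a Benjamini-Hochberg adjusted p under 0.05, two-sided, over all genes tested. CPM are counts scaled to a normalized library total of 1000000, and CPM summed over a list are of all UMIs, without TMM. Bulk counts entered one fit of 21 libraries. DESeq2 1.42.0 was an alternative. Marker sums were compared by exact permutation over the 7 libraries (35 relabellings). Coordinates come from GENCODE M21 (GRCm38, the mm10 build) by gene ID, for 22330 of 22347 tested genes, and promoters from RefSeq GRCm38.p6. The test was checked on simulated counts with 100 genes changed by a log2 of 1 and 100 by 2. It recovered 83% and 97% of them, with 7 false calls. The counts were drawn without the library sets seen here, so that check does not cover their effect.

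Named genes are Atp6v1h, Prnp and Mapt, the 10 with the smallest p in each direction with and without CLEAR_PS19 1 and 2, up to 4 members of each of 19 pathway lists by p and up to 3 of each of 17 marker lists by level; Y-linked genes and Xist are left out. Stat2, Irf9, Cmpk2, Isg15, Ifit1, Trim30a, Smpd1, Tpp1 and Tcea1 were added after their values were seen. The libraries and lists were chosen with earlier results of these data known. Nuclei rich in microglia markers, counts by position and some leave-outs were added after the data were seen. Where nothing says that replicates came from separate animals, p-values measure only the spread between these samples. Some single genes are not reported here.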

Additional observations from a re-analysis of the deposited data

Results flagged for a closer look

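In 7 of 87 groups of 4 libraries checked, 1 CLEAR_PS19 library lay far from the other 3, by a criterion (Dixon's 95% critical value) that chance meets in about 1 in 20 groups. In 4 of them it was replicate 3 and lay above the others: Itgax, the integrin CD11c, was at 1.90 CPM against 0.368 to 0.429. C4b, the complement component, was at 34.2 CPM against 14.4 to 16.5. Atp6v0d2, the macrophage V0 subunit, was at 1.00 CPM against 0.0230 to 0.112, and the gene model Gm20429 was at 0.138 CPM against 0.0560 to 0.0690. Replicate 3 was low in the gene model Gm32850, at 0.213 CPM against 0.715 to 0.795. Crtac1, a secreted cartilage protein also found in neurons, was at 113 CPM in replicate 4, the female, against 86.6 to 88.3. Hyal5 was at 0.0715 CPM in replicate 1 against 0.161 to 0.175.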

How the results depend on the processing

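The count of called genes in CLEAR_PS19 against PS19, 1 in the reported fit, was 0 without replicates 1 and 2 of both CLEAR groups or with the 7 libraries alone, 3 without a filter, 5 with 1000 or more genes per barcode, 288 by DESeq2 (77 higher, 211 lower) and 1 to 261 on leaving out one library, with 122 without PS19 3, 28 without CLEAR_PS19 4 and 261 without CLEAR_PS19 3. With the replicate block it was 6483. Same-numbered deviations of PS19 and CLEAR_PS19 correlated at 0.25, -0.04 and -0.40, so the numbers did not steadily pair these 2 groups. The block ran over all 4 groups, and pairing by number between the others was not tested. CLEAR 1 and 2 did lie close to CLEAR_PS19 1 and 2 (r = 0.988 to 0.990). Without CLEAR_PS19 1 and 2, calls were 6 by DESeq2 and 0 to 1 on leaving out one more library. Interaction calls, 0 as reported, were 56 by DESeq2 and 0 to 16 on leaving out one library (16 without CLEAR_PS19 4, 1 without PS19 3 or CLEAR 4). Among alternatives to the reported fit, Atp6v1h kept its sign in every run, with the call in 27 and without it in 3. The 3 were -0.82 (edgeR adjusted p 0.0504) without replicates 1 and 2 of both groups, -0.87 (edgeR adjusted p 0.133) with the 7 libraries alone and -0.73 (edgeR adjusted p 0.0821) in marker-rich nuclei. On leaving out one library it ranged from -0.91 to -0.81. These counts leave out the runs that began without CLEAR_PS19 1 and 2. There, leaving out PS19 2 as well left 0 genes called, so Atp6v1h lost the call. Interferon members called numbered 8 without PS19 3, 6 without CLEAR_PS19 3 and 19 with the replicate block; the list's median was -0.79 with granule neuron markers as a covariate and -0.94 with the library set as a block. In marker-rich nuclei the sign turned for the disease-associated ratio (-0.64), Mapt (0.22), Sall1 (0.11), Cx3cr1 (0.18), Ctss (0.14) and Bnc2 (0.58); the cause was not tested. The ratio ranged from 0.23 to 0.36 on leaving out one library. Bulk calls of higher genes, 1239 as reported beside 821 lower, ranged from 824 (without PS19 5) to 1279. Over all alternatives, 37 list medians moved beyond the spread and 1038 did not. Genes at an unadjusted p under 0.05 ranged from 1512 (without PS19 2) to 5686 on leaving out one library. Genes below 1 CPM rest on few UMIs a library, which limits their precision.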
